A study of Homo sapiens with 6 samples.

Results

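The genes described here are 9 genes of the tight junction that were picked by name: the claudin genes CLDN1, CLDN3, CLDN4, CLDN7 and CLDN12, OCLN (occludin), MARVELD2 (tricellulin), F11R (JAM-A) and TJP1 (ZO-1). They make up 9 of the 62700 genes of the deposited count table, and each has 1 row there. Tight junctions seal the space between neighbouring epithelial cells. Their strands are built from claudins, a family of small membrane proteins that set which ions can pass, and hold the MARVEL-domain proteins occludin and tricellulin. Immunoglobulin-type adhesion proteins of the JAM group lie beside the strands, and ZO proteins tie the strands to actin from the cytoplasmic side.

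Polyadenylated RNA was sequenced from SAS cells, an established human line made from a tongue squamous cell carcinoma. The control group had 3 libraries from cells given a control siRNA (siC, genotype labelled WT), and the knockdown group had 3 libraries from cells given an siRNA against IGF2BP1, which encodes an RNA-binding protein. The labels give no siRNA dose, duration or sequence, and they do not say whether the replicates were separate cultures; the p-values thus cover only how far these libraries vary, which may be technical. The series asks how IGF2BP1 acts on YAP1 and Hippo signalling; for the tight junction genes, the comparison is knockdown over control.

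Each library held between 17918496 (knockdown 1) and 26675064 reads. IGF2BP1 had 185, 223 and 292 reads in controls 1 to 3, against 29, 25 and 21 in knockdowns 1 to 3. Knockdown 1 stood apart in RNA5-8SN3, a ribosomal RNA gene, at a normalised level of 543 CPM (reads scaled to library size) against 21.3 to 50.7 CPM elsewhere, so values without it are given for the called genes among the 9. As to the labelled cell type, all 6 squamous and all 4 general epithelial markers were detected. Of these, 3 squamous and 3 general epithelial markers were called lower, beside 6.66% of all tested genes. In both lists 0 were called higher, and EPCAM was not called. The most abundant marker was KRT5 in the squamous list and KRT8 in the general epithelial list. The summed markers ran from 6852 to 7569 CPM in controls and 3227 to 3490 CPM after knockdown for the squamous list, and from 14510 to 15537 CPM and 7463 to 7920 CPM for the general epithelial list. The part of these epithelial markers in the results for tight junction genes was not tested, and in bulk RNA fewer cells of a type and less RNA per cell cannot be told apart. Of the markers of other cell types, COL3A1, DCN, LUM, THY1 and POSTN of 10 fibroblast genes, KDR, CLDN5 and EMCN of 8 endothelial genes and PTPRC and CD3E of 5 leukocyte genes had 0 reads. The summed fibroblast markers ranged from 6.37 to 8.54 CPM in controls and from 5.72 to 9.29 CPM after knockdown. Of 3 tested fibroblast markers, PDGFRB was called higher (log2 fold change 1.52, edgeR adjusted p = 0.0491), beside 6.27% of all tested genes. PDGFRB stood at 0.657, 0.775 and 0.384 CPM in controls 1 to 3, against 1.54, 2.28 and 1.38 CPM after knockdown. It passed the filter on low counts, 0.42 CPM in at least 3 libraries, only through the knockdown group. Its call was not looked up in alternative fits. The endothelial markers ranged from 7.11 to 8.40 and from 8.27 to 14.6 CPM, and the leukocyte markers from 17.1 to 18.4 and from 12.1 to 14.2 CPM.

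After knockdown CLDN4 and CLDN3 rose and F11R fell, and the other 6 genes did not pass the test. The threshold was an adjusted p of 0.05 in edgeR's quasi-likelihood test, with Benjamini-Hochberg adjustment over 14649 tested genes. Among all tested genes 6.27% were called higher, 6.66% lower and 12.9% in either direction; among the 9, 2 were higher and 1 lower. Control and knockdown libraries did not overlap, with the knockdown higher, for 2 of the 9 and, with the knockdown lower, for 3 (CLDN1, CLDN12 and F11R), against 15.5% and 15.1% of all tested genes. The median log2 fold change of the 9 was -0.10, and that of all tested genes was 0.03. No test was made over the 9 as a list. All 9 passed the filter on low counts, which required 0.42 CPM in at least 3 libraries, and CLDN3 passed it only through the knockdown group.

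**Figure D1:**
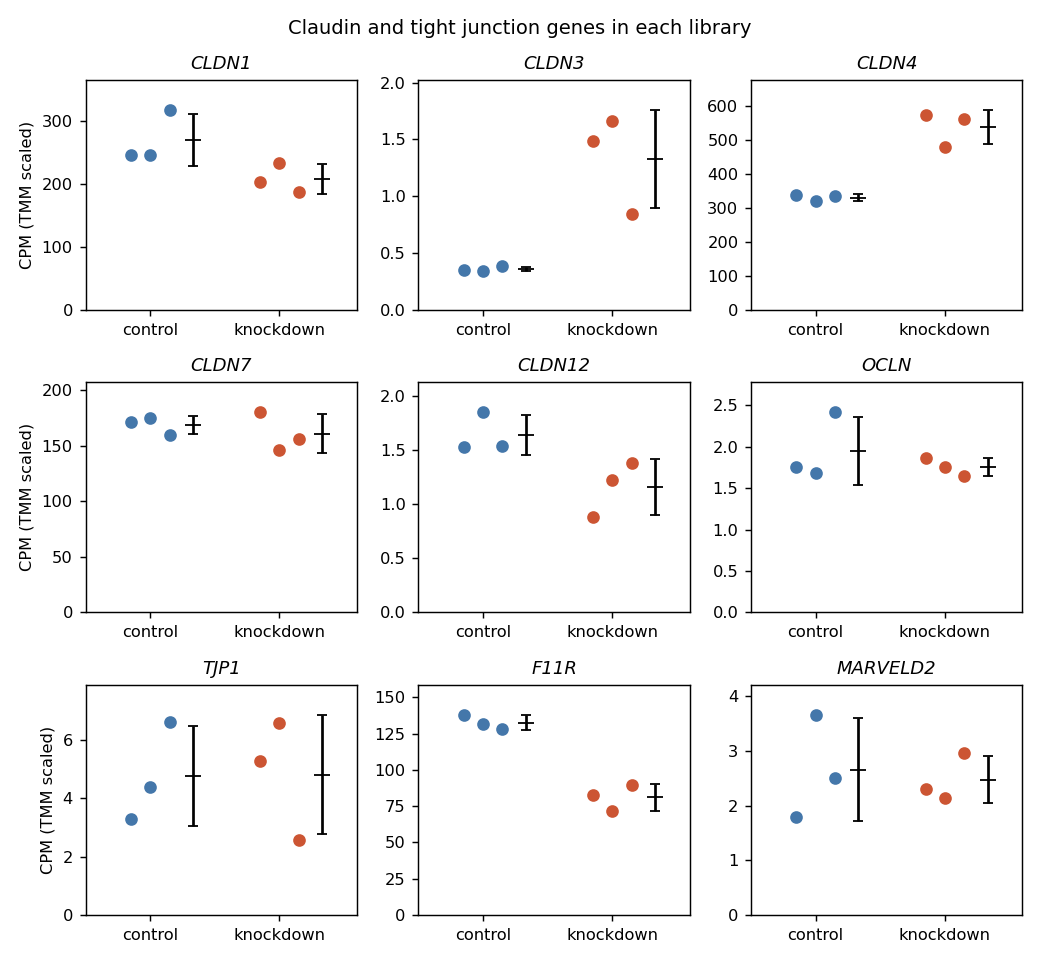
Level of each of the 9 genes (vertical axis, CPM, TMM scaled, starting at 0) in the 3 control and 3 knockdown libraries, 1 point per library in the order 1 to 3, with mean and SD beside them. CLDN4 and CLDN3 are higher in every knockdown library than in any control, F11R is lower in every one, and the points of CLDN7, OCLN, TJP1 and MARVELD2 overlap.

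CLDN4 encodes claudin-4, a sealing claudin of simple and stratified epithelia. It stood at 338, 320.3 and 334 CPM in controls 1 to 3, against at 574, 481 and 561 CPM in knockdowns 1 to 3. The lowest knockdown library was well above the highest control. The mean went from 331 ± 9.24 to 538 ± 50.5 CPM (SD, n = 3 each), a log2 fold change of 0.70 with a 95% interval from 0.49 to 0.92 (SE 0.10, edgeR adjusted p = 2.23e-04). CLDN4 was called in each of the 13 alternative fits, with log2 fold changes between 0.65 and 0.79.

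CLDN3 encodes claudin-3, which together with claudin-4 is known as a receptor of Clostridium perfringens enterotoxin. It was a low transcript here, with 8, 8 and 10 reads in controls 1 to 3, against 27, 38 and 22 in knockdowns 1 to 3. These counts correspond to 0.351, 0.345 and 0.384 CPM in controls and 1.48, 1.66 and 0.845 CPM after knockdown, so the groups did not overlap. Summed over each group, the 26 control and 87 knockdown reads stood in a scaled ratio of 3.60 (95% counting interval 2.30 to 5.81), which covers counting error only. The fitted log2 fold change was 1.87 (95% interval 0.67 to 3.06, SE 0.56, edgeR adjusted p = 0.0378). The call was lost in 7 of the 12 alternative fits that tested CLDN3 and gave an adjusted p, among them those without control 1, control 2, control 3, knockdown 1 or knockdown 2, where adjusted p-values ran from 0.0862 to 0.15; the direction was kept in all 12.

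CLDN3 and CLDN4 are neighbours, so their sequences just upstream are shown: the 250 bases before each start site, from RefSeq on GRCh38.p14, each 5′ to 3′ on the strand of its gene. CLDN3 lies on the minus strand of chromosome 7 (GRCh38, 73768997 to 73770270) and CLDN4 on the plus strand (73799542 to 73832693). The start sites given by RefSeq are 60.7 kb apart and point away from each other; that of CLDN4 lies inside the longer gene span that GENCODE gives. Capitals mark matches to GGGCGG, the GC box of Sp and KLF factors, on either strand.
CLDN3, chr7:73770271-73770520, minus strand: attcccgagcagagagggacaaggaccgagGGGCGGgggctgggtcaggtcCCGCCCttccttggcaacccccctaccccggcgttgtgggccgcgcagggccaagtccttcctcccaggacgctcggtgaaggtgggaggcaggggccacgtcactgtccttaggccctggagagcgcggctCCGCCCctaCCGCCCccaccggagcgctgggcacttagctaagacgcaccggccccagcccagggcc
CLDN4, chr7:73830746-73830995, plus strand: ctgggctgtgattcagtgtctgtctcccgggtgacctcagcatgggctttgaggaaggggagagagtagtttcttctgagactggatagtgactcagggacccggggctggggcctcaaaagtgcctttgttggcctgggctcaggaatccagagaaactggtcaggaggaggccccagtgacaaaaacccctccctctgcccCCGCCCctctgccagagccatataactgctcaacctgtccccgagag
The CLDN3 window held 4 matches to the GC box and the CLDN4 window 1, and 42.6% of 35116 promoter windows of this length in the table hold at least 1. Genes of the set that were not called had matches too. The CLDN1 window held 2 and the MARVELD2 window 3, and windows of CLDN7, OCLN and TJP1 also held matches. The CLDN12 window held 0. Neither window held GGAATG (the TEAD motif), CACCTG (the Snail and ZEB motif) or AACNNGTT (a Grainyhead motif), each searched on both strands. Those motifs were in 11.9%, 17.5% and 3.00% of all windows. G and C made up 71.6% of the CLDN3 window and 58.8% of the CLDN4 window, and the median over all windows was 58.0%. A match describes letters only. RefSeq windows were found for 8 of the 9 genes; F11R had none.

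Around CLDN3 and CLDN4, 7 other tested genes lay within 100 kb of either gene, of which 2 were called higher and 0 lower, beside 6.27% higher of all tested genes. The window was placed around 2 genes already known to be higher, so those are not counted. The called neighbours were METTL27, a methyltransferase-like gene on the minus strand that lies 1.90 kb beyond the end of CLDN4, and STX1A, which encodes the vesicle-fusion protein syntaxin-1A. METTL27 went from 19.99 ± 1.91 to 35.2 ± 2.37 CPM (SD, n = 3 each), with a log2 fold change of 0.82 (edgeR adjusted p = 9.99e-04). STX1A went from 27.1 ± 2.103 to 38.8 ± 4.48 CPM, with a log2 fold change of 0.52 (edgeR adjusted p = 0.0201). The calls of METTL27 and STX1A were not looked up in the alternative fits. ABHD11, between STX1A and CLDN3, had a log2 fold change of -0.11 with a 95% interval from -0.35 to 0.13. BUD23, whose span overlaps that of STX1A on the opposite strand, and DNAJC30 had -0.16 and -0.09, and VPS37D and TMEM270, both under 5 CPM, had 0.28 and 0.47; none of the 4 was called. ABHD11 was the 1 gene not called that lay between called ones.

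**Figure D2:**
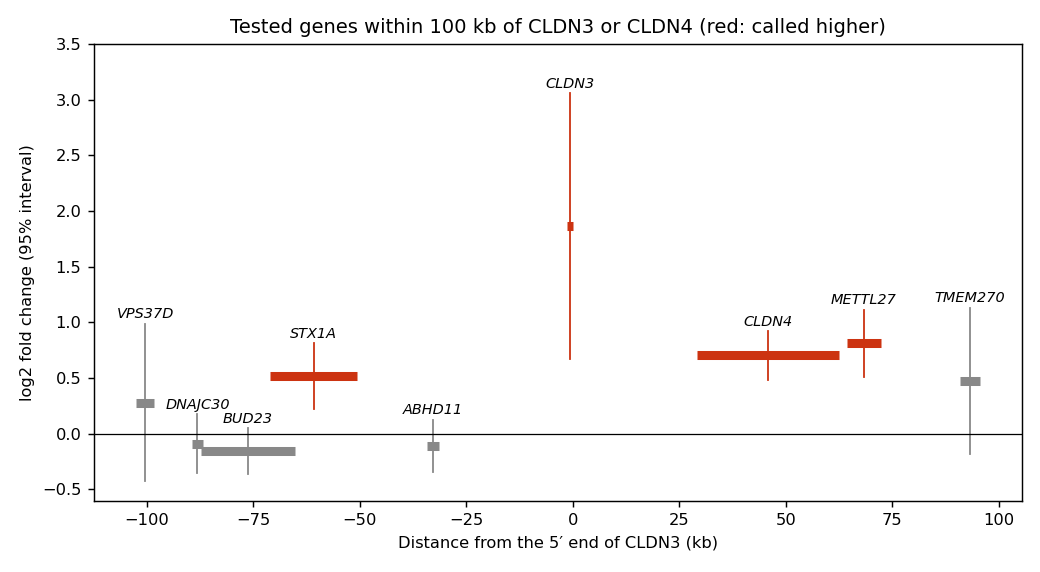
log2 fold change, knockdown over control (vertical axis), of the tested genes within 100 kb of CLDN3 or CLDN4, drawn as bars from gene start to gene end at their distance from the 5′ end of CLDN3 (horizontal axis, kb), with 95% intervals as thin lines. CLDN3, CLDN4, METTL27 and STX1A (red) were called higher, and the intervals of the 5 grey genes include 0.

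CLDN1 encodes claudin-1, the barrier claudin of the epidermis. It stood at 246, 246 and 318 CPM in controls 1 to 3, against at 203, 234 and 188 CPM after knockdown. All knockdown libraries were below all controls, and control 3 was the highest. The log2 fold change was -0.37 (95% interval -0.63 to -0.12, SE 0.12), and the edgeR adjusted p of 0.0531 missed the threshold. CLDN1 passed it in 5 alternatives: RLE scaling (adjusted p = 0.0398), no count filter (0.00608), the replicate number as a block (0.0421), DESeq2 (0.0299) and the fit without knockdown 2 (0.011).

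CLDN7 encodes claudin-7, found along the whole lateral membrane and a partner of EPCAM. Controls stood at 172, 175 and 159 CPM and knockdowns at 180.1, 146 and 156 CPM, so the groups overlapped. The log2 fold change was -0.07 with a 95% interval from -0.29 to 0.16 (edgeR adjusted p = 0.749), and its sign turned with no scaling factor (0.01). CLDN12, a claudin without the usual C-terminal anchor for ZO proteins, had 35, 43 and 40 reads in controls 1 to 3, against 16, 28 and 36 after knockdown. In CPM these were 1.53, 1.85 and 1.53 against 0.880, 1.22 and 1.38, lower in each knockdown library. Its log2 fold change of -0.49 had a wide 95% interval, from -1.35 to 0.38 (edgeR adjusted p = 0.508). In GENCODE release 29, 16.3% of the exon bases of CLDN12 are shared with other genes on its strand.

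Because reads of one library are scaled together, the make-up of the claudin family within a library does not depend on the scaling. Claudin reads per kilobase of the deposited gene length were summed over the 24 claudin genes listed, and each claudin was given as a percent of that sum. CLDN4 made up 30.9, 30.2 and 29.3% in controls 1 to 3, against 43.0, 40.3 and 45.6% in knockdowns 1 to 3. CLDN1 made up 29.1, 29.98 and 36.1% in controls and 19.7, 25.4 and 19.8% after knockdown. CLDN7 made up 29.6, 31.0 and 26.4% in controls and 25.4, 23.1 and 23.9% after knockdown. The groups did not overlap for any of these 3 claudins. By the deposited lengths, CLDN1, CLDN4 and CLDN7 held similar shares in the controls, and CLDN4 held the highest share in each knockdown library. Without dividing by length, CLDN4 made up 41.5, 40.5 and 38.8% of claudin reads in controls 1 to 3. In knockdowns 1 to 3 it made up 55.7, 52.1 and 58.0%. The shares depend on the length used, and the RefSeq start of CLDN4 lies inside its longer GENCODE span. Shares of a whole are tied, so a higher share of CLDN4 lowers the others.

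The summed claudin level was 233, 226 and 243 RPKM in controls 1 to 3, against 284, 254 and 262 RPKM in knockdowns 1 to 3, where RPKM is the TMM-scaled CPM divided by gene length in kilobases. Without CLDN4 the sums were 161, 158 and 172 RPKM in controls and 162, 152 and 142 RPKM after knockdown, and these overlapped. There were 1.37, 1.30 and 1.05 CLDN4 reads per CLDN1 read in controls 1 to 3, against 2.83, 2.05 and 2.99 in knockdowns 1 to 3. No test was made on shares, sums or ratios.

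**Figure D3:**
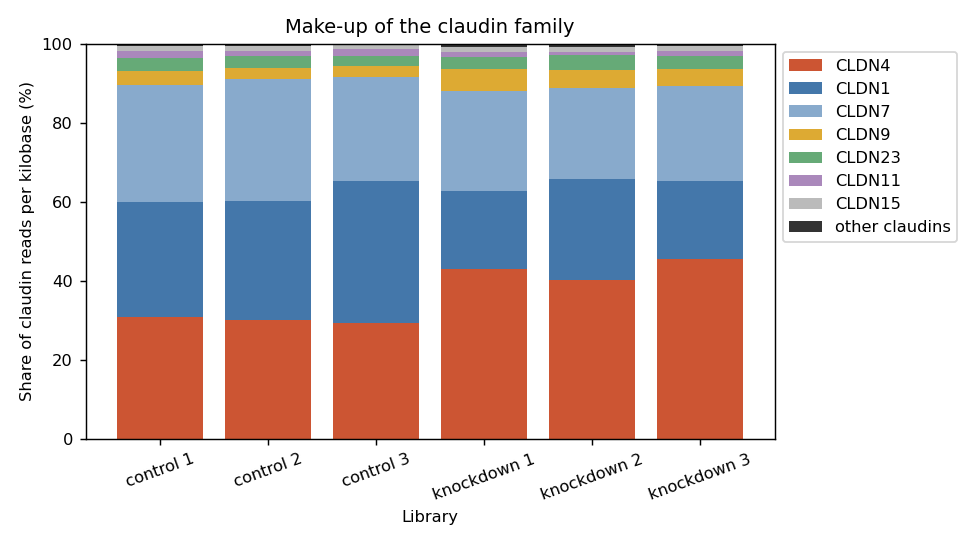
Make-up of the claudin family in each library (horizontal axis): share of all claudin reads per kilobase (vertical axis, %), stacked by gene from CLDN4 at the bottom. CLDN4 takes between 29.3 and 30.9% in controls and between 40.3 and 45.6% after knockdown.

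Of the other 19 claudin genes listed, 7 had any read, 6 were tested and 1 was called, beside 12.9% of all tested genes. CLDN9 rose. It had 299, 234 and 266 reads in controls 1 to 3, against 460, 431 and 487 in knockdowns 1 to 3, which is 13.1, 10.1 and 10.2 CPM against 25.3, 18.9 and 18.7 CPM. Its log2 fold change was 0.91 (95% interval 0.52 to 1.31, SE 0.19, edgeR adjusted p = 0.00358), and it was called in all 13 alternatives. CLDN9 lies on chromosome 16 (3012456 to 3014505), and CLDN6, a claudin of embryonic epithelia, lies on the other strand with 206 bases between them. CLDN6 had 13, 6 and 2 reads in controls 1 to 3, against 13, 5 and 20 after knockdown, which overlap.

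CLDN23 had a log2 fold change of 0.35 (95% interval 0.01 to 0.69, edgeR adjusted p = 0.181), with knockdown libraries at 18.4 to 19.7 CPM above controls at 14.0 to 16.6 CPM. CLDN11, the claudin of myelin and of the Sertoli cell barrier, had -0.31 (adjusted p = 0.36), and CLDN15, a pore-forming claudin of the gut, had 0.20 (adjusted p = 0.587). CLDN16, known from the kidney tubule, starts 65 bases beyond CLDN1 on the opposite strand and had 17, 26 and 22 reads in controls 1 to 3, against 16, 5 and 12 after knockdown. CLDN24 had 2 reads, all in knockdown 2. The remaining 12, among them the endothelial CLDN5 and the gastric CLDN18, had 0 reads in all 6 libraries, where 3 reads would be between 0.115 and 0.165 CPM.

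F11R encodes JAM-A, a homophilic adhesion protein of the immunoglobulin superfamily. It had 3151, 3055 and 3337 reads in controls 1 to 3, against 1500, 1630 and 2330 in knockdowns 1 to 3, which is 138, 132 and 128 CPM against 82.5, 71.3 and 89.4 CPM. Each knockdown library was below each control. The mean went from 133 ± 5.09 to 81.1 ± 9.14 CPM (SD, n = 3 each), with a log2 fold change of -0.71 (95% interval -0.94 to -0.47, SE 0.11, edgeR adjusted p = 4.21e-04). The fall was called in all 13 alternatives, between -0.79 and -0.63. Another gene on the same strand shares 36.6% of the exon bases of F11R (chromosome 1, 160995211 to 161021348); that gene was given 3 to 23 reads a library, and how reads of shared exons were counted is not given in the sources used here. CLDN4 and F11R were already called in opposite directions, so the ratio of their reads adds no separate evidence. Controls 1 to 3 had 2.45, 2.43 and 2.61 CLDN4 reads per F11R read. Knockdowns 1 to 3 had 6.95, 6.74 and 6.28. Without knockdown 1 the 3 called genes had log2 fold changes of 0.65 (CLDN4, adjusted p = 2.14e-04), -0.72 (F11R, adjusted p = 4.91e-04) and 1.78 (CLDN3, adjusted p = 0.11).

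Other JAM-type genes were low: JAM3 averaged 4.33 CPM in the control and 3.89 CPM in the knockdown group, ESAM and CXADR had group means under 2 CPM, and none was called. JAM2 had 0 reads.

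The MARVEL-domain genes of the set were scarce and not called. OCLN, the gene of occludin, had 40, 39 and 63 reads in controls 1 to 3, against 34, 40 and 43 after knockdown. In CPM these were 1.75, 1.68 and 2.42 against 1.87, 1.75 and 1.65, with control 3 the highest and the groups overlapping. The log2 fold change was -0.15 (95% interval -0.92 to 0.61, edgeR adjusted p = 0.841), and its sign turned without control 3. A partial copy, OCLNP1, held 0 to 4 reads a library, so the split of reads between the copies is uncertain. MARVELD2, whose product tricellulin sits where 3 cells meet, had 41, 85 and 65 reads in controls 1 to 3, against 42, 49 and 77 after knockdown, which is 1.80, 3.66 and 2.49 CPM against 2.31, 2.14 and 2.96 CPM. Its log2 fold change was -0.10 (95% interval -0.84 to 0.64, edgeR adjusted p = 0.898). The spread between controls was larger than the difference between groups for both genes.

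MARVELD3, the other MARVEL-domain gene of the junction, was more abundant, at 39.4, 44.7 and 31.9 CPM in controls 1 to 3, against 29.9, 30.8 and 24.9 CPM after knockdown. Its log2 fold change of -0.44 was not called (edgeR adjusted p = 0.0695), and 18.1% of its exon bases overlap genes on the opposite strand. LSR, which encodes angulin-1, the protein that recruits tricellulin to tricellular contacts, fell. It stood at 446, 429 and 432 CPM in controls 1 to 3, against at 301, 249 and 270.5 CPM in knockdowns 1 to 3, with no overlap. The log2 fold change was -0.67 (95% interval -0.89 to -0.45, SE 0.10, edgeR adjusted p = 3.29e-04), and LSR was called in all 13 alternatives. Of the other angulins, ILDR1 was too low to be tested and ILDR2 had 0 reads.

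TJP1, the gene of the scaffold ZO-1, had 75, 102 and 173 reads in controls 1 to 3, against 96, 151 and 67 in knockdowns 1 to 3. That is 3.29, 4.39 and 6.64 CPM against 5.28, 6.61 and 2.57 CPM, and libraries within a group differed by more than the group means. The log2 fold change was 0.01 (95% interval -0.73 to 0.74, edgeR adjusted p = 0.996), and its sign turned in 8 of the 13 alternatives. The paralog TJP3 stood at 1.54 CPM in the control and 2.26 CPM in the knockdown group and was not called. The cytoplasmic scaffold CGN, cingulin, was the more abundant one at 79.7 ± 10.4 CPM without and 73.5 ± 8.65 CPM with the knockdown (SD, n = 3 each), with a log2 fold change of -0.12 (edgeR adjusted p = 0.629).

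Levels per kilobase fell into 2 ranges. In controls CLDN1 stood at 74.4 ± 11.4, CLDN4 at 70.4 ± 1.97, CLDN7 at 67.6 ± 3.20 and F11R at 26.2 ± 1.00 RPKM (SD, n = 3). At the deposited gene lengths the first 3 did not differ beyond their spread between libraries, and F11R was below each of them in each library. That spread does not cover the choice of length. The other 5 were under 1 RPKM in each control library: MARVELD2 at 0.494 ± 0.175, TJP1 at 0.422 ± 0.151, CLDN3 at 0.282 ± 0.0166, CLDN12 at 0.244 ± 0.0273 and OCLN at 0.173 ± 0.0361 RPKM. Among these, the ranges over the controls overlapped for MARVELD2 with TJP1, TJP1 with CLDN3 and CLDN3 with CLDN12. OCLN was below CLDN12 in each control library.

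After knockdown the order was CLDN4 (115 ± 10.7), CLDN7 (64.5 ± 6.99), CLDN1 (57.4 ± 6.50), F11R (16.0 ± 1.81), CLDN3 (1.04 ± 0.338), MARVELD2 (0.460 ± 0.0800), TJP1 (0.426 ± 0.182), CLDN12 (0.173 ± 0.0383) and OCLN (0.156 ± 0.00972), all in RPKM (SD, n = 3). CLDN4 was above CLDN7 and CLDN1 in each knockdown library, while CLDN7 and CLDN1 overlapped. The order within each range depends on the length used. With the longest transcript of GENCODE release 29 in place of the deposited length, CLDN7 came first of the 9 in controls and CLDN4 second. CLDN1 came in place 3 and CLDN3 in place 9. For CLDN4 the RefSeq start lies inside the GENCODE span. A shorter length would raise its level, and levels with such a length were not computed.

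**Figure D4:**
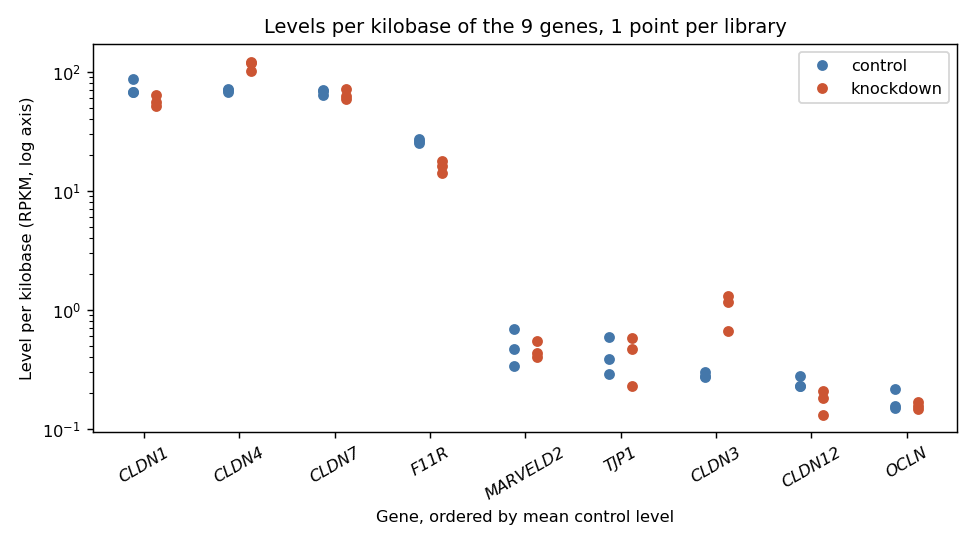
Level per kilobase (vertical axis, RPKM, log axis) of the 9 genes (horizontal axis, ordered by mean control level), 1 point per library. CLDN1, CLDN4, CLDN7 and F11R lie above 10 RPKM, and the other 5 lie below 2 RPKM in every library.

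A wider list of 77 tight junction genes, the 9 included, had 56 tested genes, of which 4 were called higher, CLDN3 among them, and 7 lower, with a median log2 fold change of -0.05. Without the 9, 2 of 47 tested genes were higher (CLDN9 and MYLK) and 6 lower (LSR, AMOTL2, PARD6G, LLGL1, LLGL2 and ST14), beside 6.27% and 6.66% of all tested genes. By role, of 11 tested claudins 3 were called higher (CLDN4, CLDN9 and CLDN3) and 0 lower. Their log2 fold changes were above 0 for 6 and below 0 for 5. CLDN3 passed the count filter only through the knockdown libraries and lost its call in 7 alternative fits. CLDN1 just missed a call as lower (log2 fold change -0.37, edgeR adjusted p = 0.0531) and passed the threshold in 5 alternative fits. Of 14 tested polarity genes 0 were higher and 3 lower. In the claudin group the highest log2 fold change was that of CLDN3, 1.87, and the lowest that of CLDN16, -0.82.

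The lower polarity genes were LLGL1 and LLGL2, which encode basolateral polarity proteins of the Lgl family, and PARD6G, a partner of atypical protein kinase C. LLGL2 went from 79.3 ± 3.68 to 58.3 ± 3.82 CPM (SD over 3 libraries a group), a log2 fold change of -0.45 with an edgeR adjusted p of 0.0132, and LLGL1 changed by -0.42 on that scale (adjusted p = 0.0168). Both kept the call in all 13 alternatives. PARD6G had -0.64 (adjusted p = 0.0385) and lost the call in 7 of them, each fit without control 1, control 3, knockdown 1, knockdown 2 or knockdown 3 included (adjusted p up to 0.158). CRB3, the apical Crumbs protein of epithelia, had 0.35 (adjusted p = 0.065) with knockdown libraries all above controls.

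Of 11 tested scaffolds 1 was called, the angiomotin-like AMOTL2 (log2 fold change -0.41, edgeR adjusted p = 0.0195), beside 12.9% of all tested genes called in either direction. AMOTL2 was not called without control 1 (adjusted p = 0.0637) or knockdown 3 (adjusted p = 0.0875). Of 12 genes of junction signalling and claudin partners, MYLK rose and ST14 fell, beside the same share of all tested genes. MYLK, the myosin light chain kinase that tightens the actin ring at the junction, changed by 0.73 on the log2 scale (adjusted p = 0.0346), and ST14, the membrane protease matriptase, had -0.33 (adjusted p = 0.0435). MYLK was not called without control 1, control 2, knockdown 1 or knockdown 2 (adjusted p from 0.0894 to 0.122) or with the replicate block (adjusted p = 0.0555), and ST14 only kept its call without knockdown 1 among the fits that leave out 1 library (adjusted p up to 0.149 in the others) and lost it with no scaling factor (adjusted p = 0.0871). EPCAM, a membrane protein that binds and stabilises claudin-1 and claudin-7, had a log2 fold change of 0.12 and was not called.

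**Figure D5:**
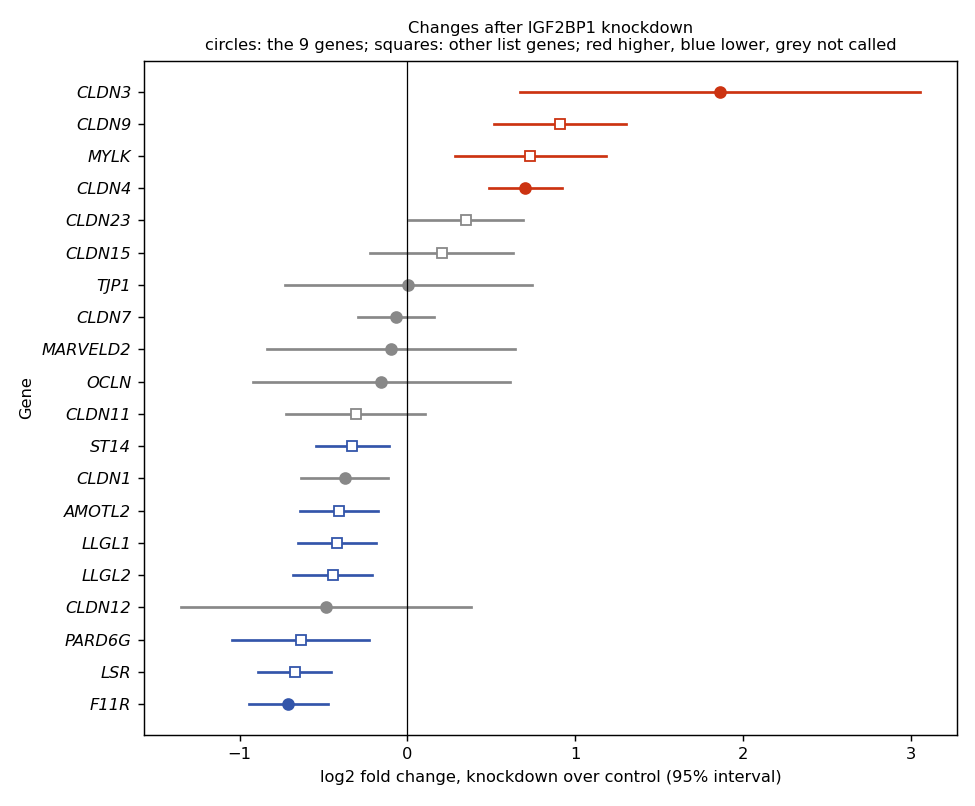
log2 fold change, knockdown over control (horizontal axis, with 95% intervals), of the 9 genes (circles), the called genes of the wider tight junction list and the other claudins with at least 1 CPM in a group (squares). CLDN3, CLDN9, MYLK and CLDN4 were called higher (red), F11R, LSR and 5 others lower (blue), and grey genes were not called.

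Transcription factors known to act on junction genes were read from a list of 14, of which 12 were tested, 1 was called higher and 2 lower, beside 6.27% and 6.66% of all tested genes. The log2 fold change of ELF3 was -1.70 (edgeR adjusted p = 3.55e-08) and GRHL3 of -0.65 (adjusted p = 0.0246), while KLF4 had 0.84 (adjusted p = 0.0473) with overlapping groups. GRHL3 was not called without control 2, control 3 or knockdown 1 (adjusted p up to 0.115), nor KLF4 without control 2, control 3, knockdown 1 or knockdown 2 (adjusted p up to 0.205) or by limma-voom (adjusted p = 0.0783). GRHL2, a known activator of CLDN4, had 0.01 (95% interval from -0.32 to 0.34). Of the repressors of claudin and occludin genes, SNAI1 and SNAI2 had -0.46 and 0.35, neither called, ZEB1 was too low to be tested and ZEB2 had 0 reads.

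For each called gene of the 9, the 3 genes closest in pattern were taken by the root mean square difference of log2 CPM over the 6 libraries, each gene centred on its own mean, among named genes of at least 5 CPM. For CLDN4 these were SYTL3, CELSR3 and FLOT2, at differences of 0.0448, 0.046 and 0.0462 among 7869 genes. For F11R they were TMEM129, RAD54L and DANCR, at 0.0432, 0.0463 and 0.0501. For CLDN3 they were FAM181B, LBX2 and CLIC3, at 0.233, 0.258 and 0.268 among 7870 genes, which is a looser likeness. With 2 groups the measure mostly follows the group difference, so genes of like fold change come closest. The log2 fold changes were 0.74, 0.73 and 0.68 for the 3 genes near CLDN4, and -0.69, -0.66 and -0.68 for those near F11R. For those near CLDN3 they were 1.63, 1.39 and 1.51, each below the 1.87 of CLDN3 itself. A shared regulation was not tested.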

How the data were processed

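The authors deposited raw read counts per gene for 6 libraries and a gene length in bases. The submitters' processing notes name featureCounts 2.0.0, HISAT2 2.1.0, cutadapt 2.8 and SAMtools 1.10, with build hg38. Not given in the sources used here: the annotation, the strand setting and the handling of shared reads. Per the labels' protocols the libraries mark strand. Columns were matched to samples by library name, and 0 sample columns stayed unused.

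The count fit covered the whole table: filterByExpr (minimum count 10, minimum total 15), TMM scaling, and edgeR 4.0.16 (R 4.3.3) robust quasi-likelihood fits with 2 groups, adjusted over 14649 genes. The SE was taken as the absolute log2 fold change over the root of its F statistic, and 95% intervals from it. The fit was also run on simulated counts with known fold changes, and the outcome of that run is not given or used here. Alternatives were RLE or no scaling, no filter or a filter of 5 CPM in 3 libraries, a replicate block, DESeq2 1.42.0, limma-voom (limma 3.58.1) and leaving out each library, 13 in all. Replicates differed by more than sampling noise (chi-square per degree of freedom 14.6 to 36.2).

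The 9 genes and all lists were chosen with earlier results of these data known. Named genes are the 9, the called genes of the lists, claudins of at least 1 CPM in a group, tested genes within 100 kb of CLDN3 or CLDN4, and the nearest patterns by root mean square difference (log2 CPM, prior count 2); other genes named for their role were chosen after their values were seen. Coordinates are from GENCODE release 29 (GRCh38, also called hg38) and upstream sequences from RefSeq (GRCh38.p14).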

Additional observations from a re-analysis of the deposited data

How the results depend on the processing

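CLDN4, F11R, CLDN9, LSR, LLGL1 and LLGL2 kept direction and call in all 13 alternatives. Of the 9 genes, 2 were called higher; the count was 1 with the stricter filter, which removes CLDN3, 1 with the replicate block and 1 by limma-voom, and between 1 and 2 when 1 library was left out. The 1 gene called lower became 2 with RLE scaling, with no count filter, with the replicate block and by DESeq2, where CLDN1 passed, and between 1 and 2 when 1 library was left out. In the wider list, leaving out 1 library gave 2 to 4 genes higher (2 without control 1, control 2, knockdown 1 or knockdown 2) and 4 to 8 lower (4 without control 1 or knockdown 3). Signs turned for CLDN7 with no scaling factor (0.014), for TJP1 with RLE scaling (-0.0069), the replicate block (-0.017), DESeq2 (-0.0047) and limma-voom (-0.088), and when 1 library was left out for TJP1 (-0.33 to 0.32), OCLN (-0.26 to 0.018, turned without control 3) and MARVELD2 (-0.35 to 0.19, turned without control 2). The cause of these shifts was not tested, except that fits without a library hold fewer samples.

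Replicate numbers gave no shown pairing: deviations of same-numbered libraries from their group means correlated at 0.18, 0.09 and -0.07, and 3 of 6 libraries were closest to their own number. With the replicate block 2431 genes were called over all genes, against 1893 without it. With another scaling or filter, the median log2 fold change of all genes lay between 0.02 and 0.12. Of all calls 48.5% were higher, and 63.2% with no scaling factor. OCLN, CLDN12, TJP1, MARVELD2 and CLDN3 rest on at most 173 reads in each library.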
